A study of Homo sapiens with 23 samples.

Results

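Resistant clones 10 and 12 were both grown from WM989 A6-G3, a human BRAF-mutant melanoma line that had been taken through a single-cell bottleneck, and both were selected and kept in the same drugs. They were compared by RNA sequencing over all genes. The comparison used 6 of the 23 samples in the series, all 3 libraries of clone 10 and all 3 of clone 12, chosen by the clone name and drug in their labels. Clone 10 (colony A2) and clone 12 (colony C3) were expanded from colonies that grew out in 250 nM dabrafenib with 2.5 nM trametinib and stayed in both drugs. Untreated WM989 A6-G3 cells, which received no drug, had 3 libraries and serve only as the level of the parent. The genotype label of all 9 samples reads WT. Each resistant group is the progeny of 1 colony, so a difference between the clones is a difference between 2 colonies. The labels call the samples of a group biological replicates and do not say what separated them. The p-values therefore measure a spread between samples within groups, which may be technical. For single genes this spread was shared over all 23 libraries in 8 groups, so it is not that of clones 10 and 12 alone. The comparison addresses how far resistant cells from a single parent and a single drug combination differ from each other.

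Dabrafenib inhibits mutant BRAF, and trametinib inhibits MEK, the kinase below it in the MAPK cascade that drives growth in BRAF-mutant melanoma. Melanoma cells that keep growing under such drugs often lose expression of the melanocyte program run by MITF and SOX10. They often gain receptor tyrosine kinases, growth factor ligands and genes of mesenchymal matrix, through which growth signals can reach the cell by another route.

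Levels are TPM, shares of all transcripts corrected for transcript length, and were scaled between libraries. Of the 35438 genes in the table, 15657 were tested with limma. A gene was called different when its adjusted p was under 0.05 and its log2 fold change, clone 10 minus clone 12 on the log2(scaled TPM + 1) scale, was at least 1 in size. That scale understates the change of low genes. How deeply each library was sequenced cannot be read from TPM and is unknown.

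Clone 10 replicate 1 stood apart from the other libraries. It had 14415 genes above 0 TPM, against 22803 and 21930 in the other clone 10 libraries and 21649, 22223 and 21358 in clone 12. Genes at 1 TPM or more were closer in number, at 13168 in that library and 13414 to 13660 in the other 5 libraries. Across the genes tested, it correlated with the other 5 libraries at r between 0.927 and 0.944. Clone 12 replicate 3 had its highest correlation of the clone 12 libraries with clone 12 replicate 2 (r = 0.986). It reached 0.981 with clone 10 replicate 3, above its 0.976 with clone 12 replicate 1. Clone 10 replicate 3 in turn correlated more with clone 12 replicate 3 than with clone 10 replicates 2 and 1 (0.979 and 0.936). The log2 fold changes of the genes described, the counts of calls and the chromosome medians are therefore given with and without clone 10 replicate 1, and the 3 libraries of clone 12 are named beside the genes that divide them. A value of 0 in clone 10 replicate 1 is described only as listed at 0, because 219 genes at 1 TPM or more in each of the other 22 libraries were also listed at 0 there.

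Both clones were far from the melanocyte identity of the parent. SOX10, the lineage transcription factor, stood at 14.1, 0.919 and 0.357 TPM in clone 10 and at 8.34, 2.86 and 0.29 TPM in clone 12, against a mean of 468 TPM in untreated cells. PMEL, the scaffold protein of pigment organelles, had 278, 55.3 and 31.6 TPM in clone 10 and 388, 251 and 23.3 TPM in clone 12, against 9864 TPM in untreated cells. Replicates 1 of both clones were the highest for both genes and replicates 3 the lowest. With all libraries the log2 fold change was -0.08 for SOX10 and -0.74 for PMEL, neither called, and without clone 10 replicate 1 it was -1.16 and -1.64, neither called. Without both that library and clone 12 replicate 3, both were called lower in clone 10, SOX10 at -1.9 (adjusted p = 0.0115) and PMEL at -2.87 (adjusted p = 0.00594). This fit was added after the values were seen. For both genes it drops the highest clone 10 library and the lowest clone 12 library, which favours a fall in clone 10. Its adjusted p-values are therefore no evidence of a fall. No cell type other than the melanoma line is named in the labels, and the levels of markers of other cell types were summed in each library. Summed over 11 fibroblast markers, levels were 2780, 2670 and 2365 TPM in clone 10 and 2182, 2505 and 3080 TPM in clone 12. Untreated cells had 69.5, 62.9 and 60.1 TPM. In both clones most of the sum came from COL1A1, a collagen gene, so it says little of the other markers. Immune markers summed to between 290 and 379 TPM in clone 10 and between 352 and 525 TPM in clone 12, and endothelial markers to between 15.6 and 22.1 TPM in clone 10 and between 16.6 and 18.9 TPM in clone 12. In untreated cells immune markers summed to 176 TPM in each library, and endothelial markers to between 20.8 and 25.2 TPM. Keratinocyte and epithelial markers summed to 74.4, 76.6 and 182 TPM in clone 10 and 80.8, 75.5 and 120 TPM in clone 12. Neuronal markers summed to 85.8, 77.8 and 97.0 TPM in clone 10 and 133, 107 and 102 TPM in clone 12, with every clone 12 library above every clone 10 library. The part of these cell types in the results was not tested. In bulk RNA such as this, fewer cells of a type and less RNA per cell cannot be told apart.

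With all libraries, 133 genes were higher and 260 were lower in clone 10 than in clone 12, which is 2.51% of the genes tested (0.849% higher and 1.66% lower). Without clone 10 replicate 1, 110 genes were higher and 259 were lower, 2.36% of the genes tested (0.703% higher and 1.65% lower). Of the genes called, 92 higher and 197 lower genes were called in both fits, and none of the genes called with all libraries changed sign. The largest fall under the naming rule was that of AC004231.7, a gene the table does not describe, with 0, 2.07 and 6.56 TPM in clone 10 and 49, 49.3 and 78.1 TPM in clone 12 (-4.35, and -3.60 without clone 10 replicate 1). Genes of the cell cycle, the AP-1 family and the NF-kappa-B pathway held no called member. The median log2 fold change was 1.43 over the 92 higher genes and -1.5 over the 197 lower genes, and it was -0.03 over all genes tested. Counts and medians of gene lists below are to be read beside this median and the shares of calls among all genes tested. The number of calls depended on the spread assumed. A fit of the 6 libraries alone called 4 higher and 19 lower genes, and 84 of the 108 genes named by rule lost their call in it. The 108 include a panel of genes that is listed with the naming rule below. No panel gene was called with all libraries, so these had no call to lose. Lost calls given below are those of fits that left out 1 library, unless stated. Such fits, leaving out each library in turn, called 81 to 287 higher and 163 to 426 lower genes. The lowest counts of these came without clone 12 replicate 1, and the highest without clone 10 replicate 3 (higher genes) and without clone 10 replicate 2 (lower genes).

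**Figure D1:**
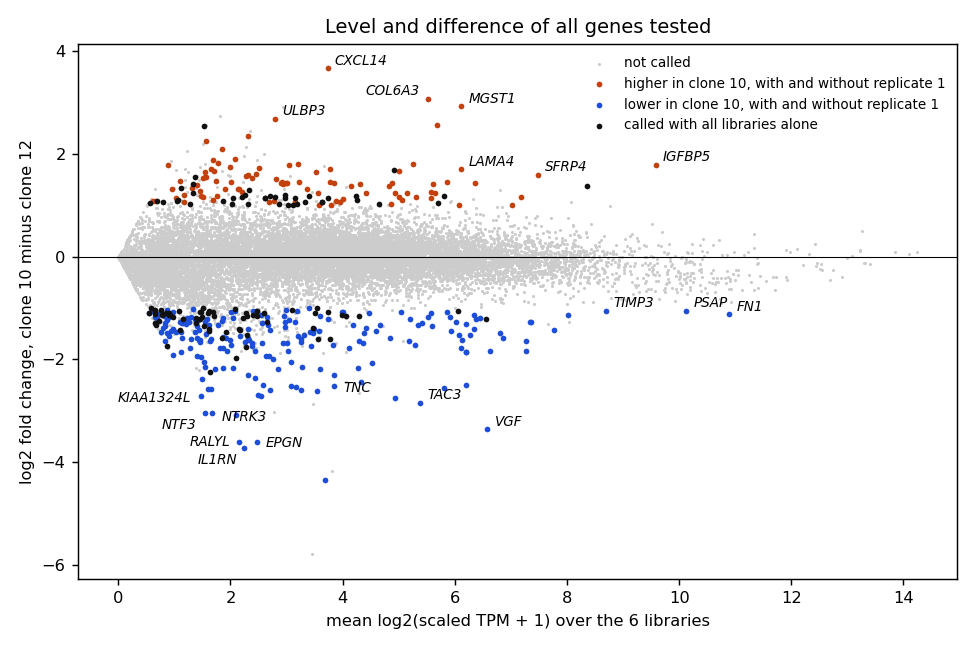
Mean level of each of the 15657 genes tested (x axis, mean log2(scaled TPM + 1) over the 6 libraries) against its log2 fold change, clone 10 minus clone 12 (y axis); each point is a gene, coloured by whether it was called in both fits, with all libraries alone, or not. The lower genes (197 called in both fits) outnumber the higher ones (92), and the labelled genes range from NTF3 at low levels to FN1 and IGFBP5 at high levels.

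Among the 6 contrasts of clone 10 with another resistant clone, which all use the clone 10 libraries, the one with clone 12 had the fewest called genes. It had 393, against 704 with clone 13, 1024 with clone 9, 1427 with clone 11, 1694 with clone 7 and 1902 with clone 8. Without clone 10 replicate 1 these numbers were 369, 614, 867, 1324, 1492 and 1666. Clones 11 and 13 had been selected in the same drugs as clones 10 and 12.

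**Figure D2:**
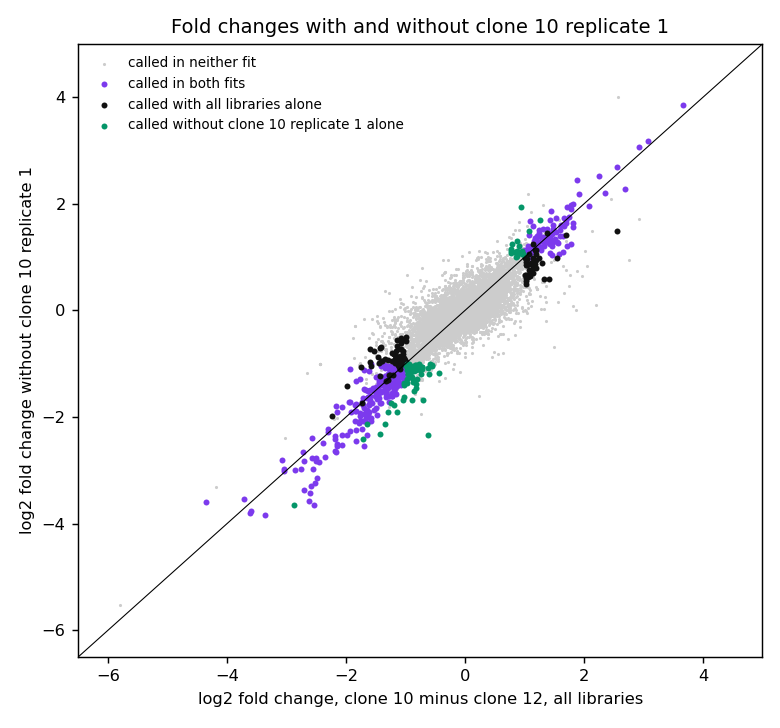
Log2 fold change of every gene tested, clone 10 minus clone 12, with all libraries (x axis) and without clone 10 replicate 1 (y axis); the diagonal marks equal values. The 289 genes called in both fits (92 higher and 197 lower) have the same sign on both axes.

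A neurotrophin and its own receptor were both near 0 in clone 10 and measurable in every library of clone 12. NTF3, the ligand neurotrophin 3, was listed at 0 in clone 10 replicate 1 and stood at 0.0255 and 0.0397 TPM in the other clone 10 libraries, against 8.39, 5.81 and 8.2 TPM in clone 12. NTRK3, the receptor tyrosine kinase that binds it, was listed at 0 in clone 10 replicate 1 and stood at 0.0863 and 0.271 TPM in the others, against 11.5, 7.61 and 6.26 TPM in clone 12. For both genes every clone 12 library was above every clone 10 library, and clone 12 replicate 3 was as high as the others for NTF3. NTF3 was lower in clone 10 by a log2 fold change of -3.04 (SE 0.19, limma adjusted p = 1.71e-08), and NTRK3 by -3.05 (SE 0.20, adjusted p = 1.71e-08). Without clone 10 replicate 1 the values were -3.02 and -2.97, and both genes were called in every fit that left out 1 library. The untreated means were 0.00484 TPM for NTF3 and 0.0896 TPM for NTRK3, so the levels of clone 10 were near those of the parent.

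The promoters of this ligand and receptor are shown because their transcripts differed together, beside those of CXCL14 and IL1RN, the largest rise and the largest fall of a gene with a known product in clone 10. The sequences are from RefSeq (GRCh38.p14), run from 250 bases before the start of the gene to 50 bases after it, read 5′ to 3′ on the strand of the gene, and have CG dinucleotides in capitals. NTF3 lies at chr12:5431858-5432157 on the plus strand and holds 32 CG. NTRK3 lies at chr15:88256690-88256989 on the minus strand and holds 30. CXCL14 lies at chr5:135578942-135579241 on the minus strand and holds 31. IL1RN lies at chr2:113117721-113118020 on the plus strand and holds 2.
NTF3: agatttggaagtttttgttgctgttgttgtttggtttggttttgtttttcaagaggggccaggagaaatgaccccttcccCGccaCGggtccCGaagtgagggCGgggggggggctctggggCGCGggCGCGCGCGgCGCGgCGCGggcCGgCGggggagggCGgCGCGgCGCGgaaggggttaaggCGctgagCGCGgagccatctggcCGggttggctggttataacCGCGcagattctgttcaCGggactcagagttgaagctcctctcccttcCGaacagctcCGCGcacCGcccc
NTRK3: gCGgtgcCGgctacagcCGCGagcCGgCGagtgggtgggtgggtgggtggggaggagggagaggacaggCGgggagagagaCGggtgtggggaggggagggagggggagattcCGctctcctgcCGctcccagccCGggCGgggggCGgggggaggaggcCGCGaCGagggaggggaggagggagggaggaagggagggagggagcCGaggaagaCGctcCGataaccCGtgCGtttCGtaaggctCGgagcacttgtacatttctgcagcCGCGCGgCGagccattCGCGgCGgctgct
CXCL14: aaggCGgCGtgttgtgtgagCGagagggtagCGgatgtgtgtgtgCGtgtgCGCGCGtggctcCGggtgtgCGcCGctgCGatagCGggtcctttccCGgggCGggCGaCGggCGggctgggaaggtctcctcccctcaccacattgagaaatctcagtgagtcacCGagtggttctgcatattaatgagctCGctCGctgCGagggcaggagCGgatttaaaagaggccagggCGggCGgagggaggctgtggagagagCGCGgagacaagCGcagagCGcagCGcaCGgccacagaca
IL1RN: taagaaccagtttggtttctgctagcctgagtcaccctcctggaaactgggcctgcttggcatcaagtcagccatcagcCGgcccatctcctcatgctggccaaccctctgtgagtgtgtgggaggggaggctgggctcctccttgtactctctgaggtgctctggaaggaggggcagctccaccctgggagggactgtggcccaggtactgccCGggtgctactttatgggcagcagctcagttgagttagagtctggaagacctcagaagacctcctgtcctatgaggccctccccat

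The motif TGANTCA, which AP-1 factors can bind, was searched on both strands of these windows and was present in the windows of CXCL14 and IL1RN and in neither NTF3 nor NTRK3. GGAATG, which TEAD factors can bind, was in none of these windows. RefSeq windows were matched by symbol for 62 of the 92 higher genes, 121 of the 197 lower genes and 10208 of all 15657 genes tested. TGANTCA was in 6.45% of the windows of higher genes, 10.7% of those of lower genes and 4.79% of all windows. GGAATG was in 9.68%, 18.2% and 11.0% of them. The median number of CG was 22, 17 and 26. These are counts of letters in windows of equal length and say nothing about binding.

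Other ligands of receptor tyrosine kinases also differed, mostly towards clone 12. Of 36 tested ligands, 1 was higher and 5 were lower in clone 10, where 0.849% and 1.66% of all genes tested were called so. The median over the list was -0.14 (-0.11 without clone 10 replicate 1), beside -0.03 over all genes. NTF3 is among the 5. EREG, epiregulin, a ligand of the EGF receptor family, had 2.07, 0.56 and 0.449 TPM in clone 10 and 8.83, 5.81 and 3.2 TPM in clone 12 (log2 fold change -1.78, SE 0.28, adjusted p = 0.000506). NRG1, neuregulin, a ligand of ERBB3 and ERBB4, had 6.13, 5.56 and 4.76 TPM in clone 10 and 20.4, 18.2 and 12.7 TPM in clone 12 (-1.46, SE 0.17, adjusted p = 3.45e-05). The groups did not overlap for either gene, and both were called in every fit that left out 1 library. EPGN, epigen, a further ligand of the EGF receptor that was not on the list, showed a larger difference. It stood at 1.02, 0.561 and 0.277 TPM in clone 10 and at 31.2, 18.9 and 10.2 TPM in clone 12 (-3.60, SE 0.42, adjusted p = 3.39e-05). The values without clone 10 replicate 1 were -2.12 for EREG, -1.54 for NRG1 and -3.77 for EPGN. EREG, NRG1 and EPGN each lost the call when only the 6 libraries of clones 10 and 12 were fitted.

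IGF1, insulin-like growth factor, and PROS1, protein S, a ligand of the AXL receptor family, were lower by -1.34 and -1.33. PROS1 levels overlapped, at 33.7, 24 and 18.1 TPM in clone 10 and 112, 70.5 and 31.8 TPM in clone 12. Neither gene was called without clone 12 replicate 1, nor PROS1 without clone 12 replicate 2 (adjusted p up to 0.0778 and 0.112). FGF7, a ligand of FGF receptors on epithelial cells, was the member that was higher in clone 10. It had 56.9, 84.1 and 91.8 TPM in clone 10 and 24.2, 32.5 and 39.2 TPM in clone 12 (log2 fold change 1.25, SE 0.29, adjusted p = 0.00973). Leaving out clone 10 replicate 1 gave -1.44 for IGF1, -1.56 for PROS1 and 1.46 for FGF7.

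On the receptor side, 2 of 28 tested receptor tyrosine kinases were higher and 1, NTRK3, was lower in clone 10 (median 0.27, and 0.18 without clone 10 replicate 1). EPHA2, a receptor of ephrins, had 18.7, 12.9 and 20.6 TPM in clone 10 and 4.57, 6.46 and 9.77 TPM in clone 12, with no overlap (1.24, SE 0.26, adjusted p = 0.00586). FLT1, a receptor of vascular endothelial growth factor, had 2.25, 2.55 and 1.97 TPM in clone 10 and 0.387, 0.596 and 0.682 TPM in clone 12 (1.07, SE 0.17, adjusted p = 0.000588). Neither was called without clone 12 replicate 1, EPHA2 at an adjusted p of 0.0522 and FLT1 under the fold minimum. AXL, EGFR and NGFR, receptors that are often raised in resistant melanoma, were not called. AXL had 25.4, 28.6 and 60.8 TPM in clone 10 and 22.7, 32.9 and 63 TPM in clone 12, overlapping ranges with the third replicate highest in each clone (log2 fold change -0.03, adjusted p = 0.97). EGFR had 16.3, 13.5 and 14.9 TPM in clone 10 and 8.26, 10.5 and 11.7 TPM in clone 12, which did not overlap but missed the call (0.52, adjusted p = 0.163). NGFR, the nerve growth factor receptor, had 5.65, 2.67 and 1.18 TPM in clone 10 and 4.32, 3.8 and 2.62 TPM in clone 12 (-0.27, adjusted p = 0.545). In the fit without clone 10 replicate 1, log2 fold changes were 1.18 for EPHA2, 1.07 for FLT1, 0.20 for AXL, 0.45 for EGFR and -0.68 for NGFR.

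The insulin-like growth factor axis held differences in both directions. IGFBP5, a secreted binding protein of these factors, had 1235, 1838 and 1274 TPM in clone 10 and 303, 366 and 623 TPM in clone 12, with the untreated mean at 5.81 TPM. Every clone 10 library was above every clone 12 library, and the log2 fold change was 1.79 (SE 0.29, adjusted p = 0.000707). IGFBP2, another binding protein of the family, was lower, with 122, 34 and 68.9 TPM in clone 10, 265, 204 and 147 TPM in clone 12 and 969 TPM in untreated cells (-1.58, SE 0.38, adjusted p = 0.0146). IGFBP2 lost its call without clone 10 replicate 2, clone 12 replicate 1 or clone 12 replicate 2 (adjusted p up to 0.0952). Of the 19 tested genes of the axis, 1 was higher and 2 were lower. With clone 10 replicate 1 left out, the values were 1.90 for IGFBP5 and -2.02 for IGFBP2.

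Output of the MAPK cascade held 1 call. Of 23 tested genes of MAPK output, only EPHA2 was called with all libraries (median 0.08). DUSP6, a phosphatase induced by ERK signaling, had 70.3, 125 and 74.8 TPM in clone 10, 128, 49.4 and 36.1 TPM in clone 12 and 124 TPM in untreated cells. The ranges of the clones overlapped (log2 fold change 0.50, SE 0.48, adjusted p = 0.55). When clone 10 replicate 1 was left out, log2 fold change was 0.65 for DUSP6.

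**Figure D3:**
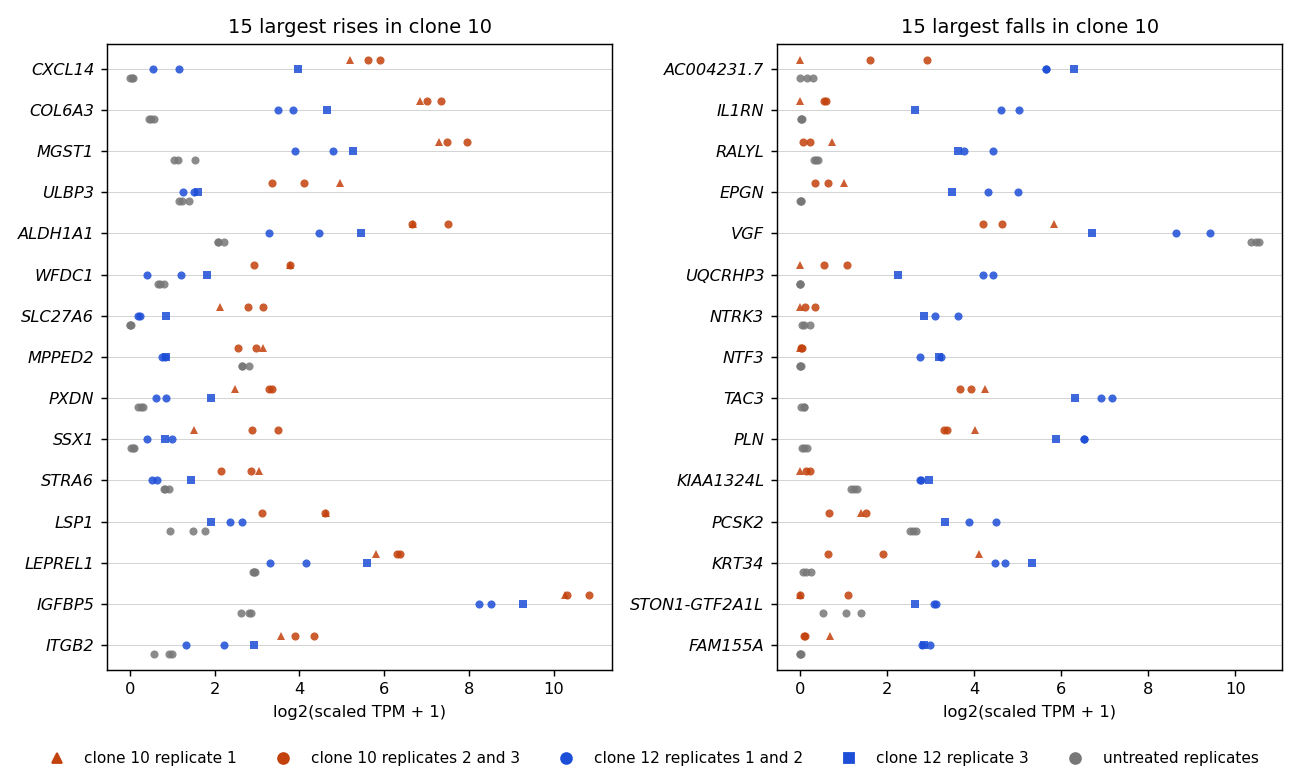
Level of the 15 genes with the largest rises (left) and the 15 with the largest falls (right) in clone 10 among called genes whose libraries did not overlap; x axis, log2(scaled TPM + 1), 1 point per library, with clone 10 in red, clone 12 in blue and untreated cells in grey. Clone 12 replicate 3 (square) is the clone 12 library closest to clone 10 for CXCL14, LEPREL1, IGFBP5, IL1RN and VGF, but not for NTF3 or KIAA1324L.

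Among secreted signals of other kinds, CXCL14, a chemokine, had 35.5, 48 and 58.7 TPM in clone 10 and 0.466, 1.25 and 14.7 TPM in clone 12, and its log2 fold change of 3.67 (SE 0.69, adjusted p = 0.00267) was the largest rise of the comparison under the naming rule. The 3 clone 12 libraries were far apart, and without clone 12 replicate 3 the value was 4.71. CCL2, a chemokine that attracts monocytes, went the other way, with 89.8, 55.9 and 26.1 TPM in clone 10 and 317, 212 and 94.4 TPM in clone 12 (-1.84, SE 0.41, adjusted p = 0.00796), and was not called without clone 12 replicate 1 (adjusted p = 0.0715). Of 27 tested cytokines and chemokines, 1 was higher and 2 were lower (median -0.14). IL6, an inflammatory cytokine, had 198, 230 and 273 TPM in clone 10 and 121, 114 and 172 TPM in clone 12, with no overlap but no call (0.79, adjusted p = 0.145). CXCL12, the ligand of CXCR4, overlapped at 231, 212 and 88.6 TPM in clone 10 and 249, 239 and 167 TPM in clone 12. The values without clone 10 replicate 1 were 3.86 for CXCL14, -2.25 for CCL2, 0.91 for IL6 and -0.65 for CXCL12.

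IL1RN, the natural antagonist of the interleukin-1 receptor, was listed at 0 in clone 10 replicate 1 and stood at 0.522 and 0.46 TPM in the other clone 10 libraries, against 32, 23.7 and 5.28 TPM in clone 12 (-3.72, SE 0.43, adjusted p = 2.54e-05). VGF, the precursor of secreted neuropeptides, had 56.6, 17.5 and 24.1 TPM in clone 10 and 686, 398 and 104 TPM in clone 12, against 1415 TPM in untreated cells (-3.36, SE 0.57, adjusted p = 0.00114). In percent of the untreated mean, VGF stood at 4.0, 1.24 and 1.7 in clone 10 and at 48.5, 28.2 and 7.34 in clone 12. PCSK2, a protease that cuts such precursors, was also lower in clone 10, at 1.66, 1.86 and 0.588 TPM against 13.8, 21.6 and 9.1 TPM in clone 12 (-2.71, adjusted p = 3.39e-05). TAC3, the precursor of neurokinin B, had 18.1, 14.2 and 11.8 TPM in clone 10 and 144, 119 and 78.6 TPM in clone 12 (-2.85, SE 0.34, adjusted p = 3.55e-05). The groups did not overlap for any of these 4 genes, and all 4 were called in every fit that left out 1 library. When only the 6 libraries were fitted, TAC3 kept its call and IL1RN, VGF and PCSK2 lost theirs. Leaving out clone 10 replicate 1 gave -3.53 for IL1RN, -3.83 for VGF, -2.82 for PCSK2 and -3.0 for TAC3.

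Antagonists of WNT signaling divided between the clones. SFRP4, a secreted protein that binds WNT ligands, had 411, 285 and 256 TPM in clone 10 and 93.6, 98.3 and 114 TPM in clone 12 (1.60, SE 0.18, adjusted p = 2.52e-05). SFRP1, of the same family, had 32, 34.6 and 41.9 TPM in clone 10 and 119, 109 and 77.6 TPM in clone 12 (-1.45, SE 0.19, adjusted p = 8.04e-05). For neither gene did the clones overlap. DKK1, another antagonist, was lower by -1.21 with all libraries and missed the call without clone 10 replicate 1. These were the 1 higher and 2 lower genes among 25 tested WNT ligands, receptors and antagonists (median 0.12, and -0.03 without clone 10 replicate 1). NOTCH1, a receptor of the Notch pathway, was higher, at 4.4, 5.94 and 4.46 TPM in clone 10 and 0.845, 1.63 and 1.79 TPM in clone 12 (1.31, SE 0.20, adjusted p = 0.000473), the only called gene of 16 tested in that pathway with all libraries. In the fit without clone 10 replicate 1, log2 fold changes were 1.4 for SFRP4, -1.37 for SFRP1, -1.21 for DKK1 and 1.37 for NOTCH1.

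Genes of the extracellular matrix differed gene by gene. COL6A3, a chain of type VI collagen, had 114, 127 and 162 TPM in clone 10 and 10.3, 13.4 and 24 TPM in clone 12, against 0.42 TPM in untreated cells (3.07, SE 0.35, adjusted p = 2.34e-05). COL3A1, type III collagen, was lower, at 20.1, 5.99 and 8.05 TPM in clone 10 and 36.1, 25.4 and 40.9 TPM in clone 12 (-1.65, SE 0.33, adjusted p = 0.00379). These were the 2 called genes of 20 tested collagen chains, whose median was -0.30. COL1A1, a chain of type I collagen, was high in both clones, at 2043, 2135 and 2065 TPM in clone 10 and 1437, 1969 and 2634 TPM in clone 12, with overlapping ranges (0.09, adjusted p = 0.852). COL1A2, the other chain of that collagen, was low in both, at 6.82, 1.23 and 1.47 TPM in clone 10 and 2.59, 2.79 and 13.5 TPM in clone 12 (-0.73, adjusted p = 0.325, and -0.07 without clone 12 replicate 3). PXDN, peroxidasin, which cross-links type IV collagen, and LEPREL1, a prolyl hydroxylase of collagen, were higher in clone 10 by 1.91 and 1.81, and LEPREL1 lost its call without clone 12 replicate 1 (adjusted p = 0.0514). With clone 10 replicate 1 left out, the values were 3.18 for COL6A3, -2.12 for COL3A1, 0.10 for COL1A1, -1.31 for COL1A2, 2.18 for PXDN and 1.99 for LEPREL1.

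Among 25 tested matrix glycoproteins and proteoglycans, 1 was higher and 3 were lower, and the median was -0.31. FN1, fibronectin, had 1714, 1095 and 1153 TPM in clone 10 and 2921, 2796 and 2708 TPM in clone 12, against 240 TPM in untreated cells (-1.12, SE 0.19, adjusted p = 0.00127). TNC, tenascin C, had 15.3, 1.7 and 3.98 TPM in clone 10 and 45.6, 29.8 and 28 TPM in clone 12 (-2.52, SE 0.45, adjusted p = 0.00181), and -3.24 without clone 10 replicate 1. SPOCK1, a matrix proteoglycan, was lower by -1.20. FN1 fell under the fold minimum without clone 10 replicate 2, and SPOCK1 missed the call without clone 12 replicate 1 (adjusted p = 0.0501). THBS1, thrombospondin, was the higher gene, at 474, 660 and 473 TPM in clone 10 and 111, 210 and 352 TPM in clone 12 (1.38, SE 0.37, adjusted p = 0.0288). It was not called without clone 10 replicate 1 (1.46, adjusted p = 0.0506), nor without clone 10 replicate 2, clone 12 replicate 1 or clone 12 replicate 2. When clone 10 replicate 1 was left out, log2 fold changes were -1.32 for FN1 and -1.39 for SPOCK1.

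Of 24 tested matrix proteases and inhibitors, 2 were higher and 3 were lower (median -0.42). ADAMTS5, a protease of cartilage proteoglycan, stood at 6.27, 4.33 and 2.2 TPM in clone 10 and at 0.428, 0.726 and 1.02 TPM in clone 12 (1.55, SE 0.22, adjusted p = 0.000246). TIMP3, an inhibitor of matrix metalloproteases, was the tightest difference of the group, at 294, 282 and 284 TPM in clone 10 and 546, 589 and 657 TPM in clone 12 (-1.05, SE 0.10, adjusted p = 2.28e-06), although it fell under the fold minimum without clone 12 replicate 3 (-0.98). SERPINE2, an inhibitor of serine proteases, and MMP16, a membrane metalloprotease, were lower by -1.27 and -1.59, and ADAM19, a membrane protease, was higher by 1.19. SERPINE2 was not called without clone 10 replicate 2, nor ADAM19 without clone 12 replicate 1. The values without clone 10 replicate 1 were 1.28 for ADAMTS5, -1.07 for TIMP3, -1.31 for SERPINE2, -1.60 for MMP16 and 1.19 for ADAM19.

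Integrins and laminins showed 4 higher genes and 1 lower gene among 27 tested, and 3 and 1 of these were called in both fits. LAMA4, a laminin chain of basement membranes, had 125, 179 and 85.1 TPM in clone 10 and 34.2, 36.4 and 42.4 TPM in clone 12, where it was near the untreated 31.9 TPM (1.70, SE 0.25, adjusted p = 0.000307). ITGB2, the beta subunit of leukocyte integrins, had 10.9, 19.4 and 14 TPM in clone 10 and 1.52, 3.68 and 6.57 TPM in clone 12 (1.78, SE 0.35, adjusted p = 0.00379). ITGA11, a collagen receptor subunit, was lower, at 49.6, 44 and 31.3 TPM in clone 10 and 138, 98.4 and 73.3 TPM in clone 12 (-1.27, SE 0.27, adjusted p = 0.00702), and missed the call without clone 12 replicate 1 (adjusted p = 0.0602). VCAM1, an adhesion molecule for leukocytes, had 973, 946 and 834 TPM in clone 10 and 532, 604 and 629 TPM in clone 12, with no overlap but no call (0.64, adjusted p = 0.0734). Leaving out clone 10 replicate 1 gave 1.69 for LAMA4, 1.97 for ITGB2, -1.40 for ITGA11 and 0.60 for VCAM1.

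**Figure D4:**
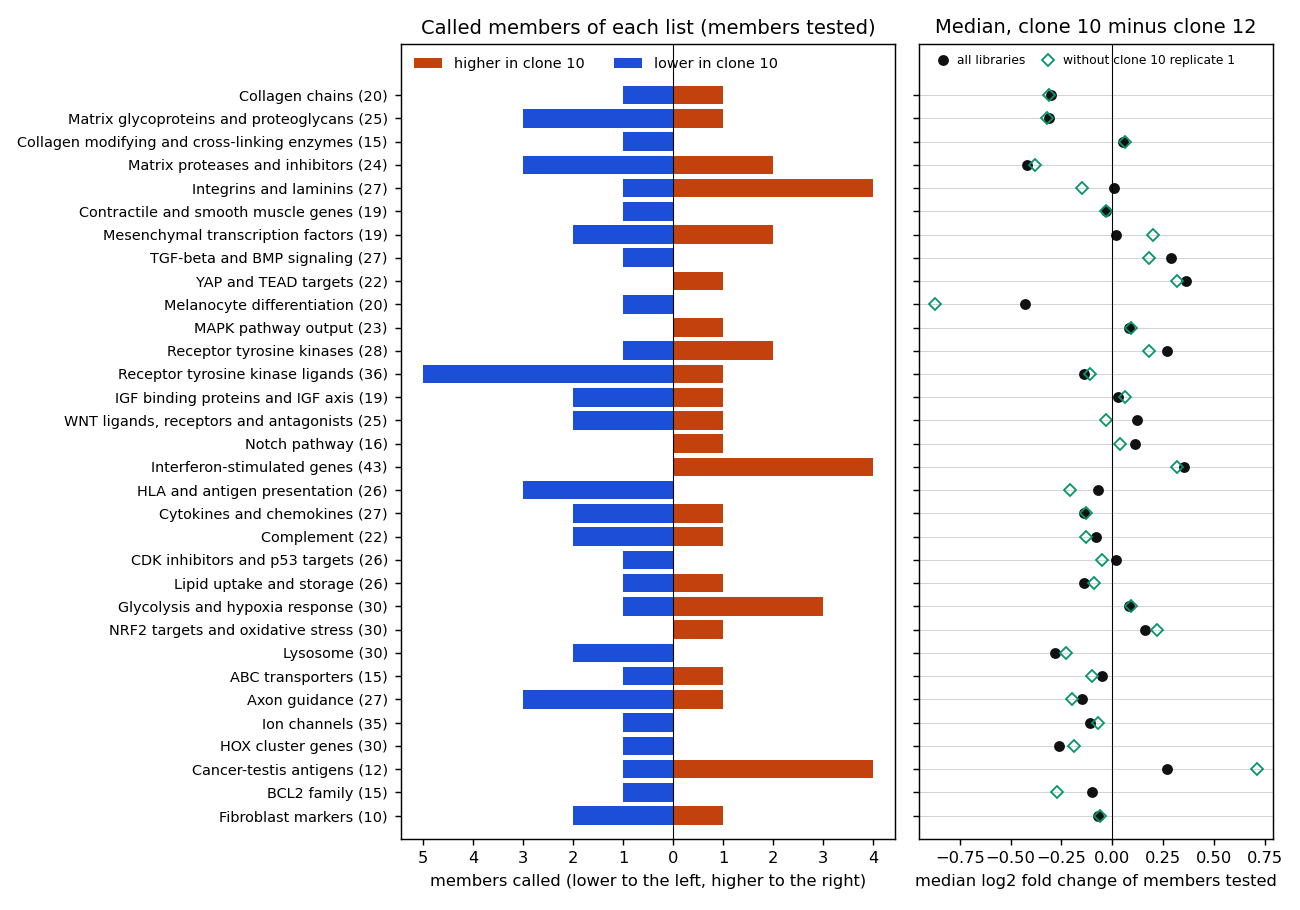
Left, number of members of each gene list called higher (right of 0) and lower (left of 0) in clone 10 with all libraries, for the lists with at least 1 such member; right, median log2 fold change of the tested members, clone 10 minus clone 12, with all libraries (filled) and without clone 10 replicate 1 (open). Ligands of receptor tyrosine kinases hold the most lower members (5), the melanocyte median is -0.43 with all libraries and -0.87 without that replicate, and the cancer-testis median is 0.27 and 0.71.

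Across 47 gene lists with 1015 tested genes, 35 genes were higher and 44 were lower in clone 10, where 0.849% and 1.66% of all genes tested were called so. The lists were chosen with earlier results of these data known, and 12 lists held no called gene in either fit. The interferon list held higher genes only. Of 43 tested interferon-stimulated genes, 4 were higher and 0 were lower with all libraries, 3 of the 4 also without clone 10 replicate 1. A positive log2 fold change was seen in 33 of the 43 (median 0.35, and 0.32 without that replicate, beside -0.03 and -0.005 over all genes tested). MX2, an antiviral GTPase, had 44.9, 36.1 and 54 TPM in clone 10 and 10.7, 17.1 and 24.6 TPM in clone 12 (1.37, SE 0.32, adjusted p = 0.012). RSAD2, the antiviral enzyme viperin, had 49.2, 51.5 and 40.9 TPM in clone 10 and 19, 18.5 and 24.4 TPM in clone 12 (1.16, SE 0.22, adjusted p = 0.00283). XAF1, an interferon-induced gene of apoptosis, had 176, 262 and 217 TPM in clone 10 and 70.4, 98.4 and 127 TPM in clone 12 (1.16, SE 0.27, adjusted p = 0.0104). None of these 3 overlapped between the clones, and MX2 and XAF1 lost the call without clone 12 replicate 1 (adjusted p up to 0.0982 and 0.086). APOL1, another antiviral and lipid-binding gene, was higher by 1.25 (adjusted p = 0.00304). In the fit without clone 10 replicate 1, log2 fold changes were 1.36 for MX2, 1.13 for RSAD2, 1.31 for XAF1 and 1.17 for APOL1.

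Genes seen by immune cells and of the complement system also differed. ULBP3, a ligand of the NKG2D receptor on natural killer cells, had 30.3, 16.3 and 9.14 TPM in clone 10 and 1.37, 1.84 and 2.06 TPM in clone 12, which was near the 1.4 TPM of untreated cells (2.69, SE 0.27, adjusted p = 5.5e-06). Of 26 tested genes of HLA and antigen presentation, 0 were higher and 3 were lower, all of class II. HLA-DRB1 was listed at 0 in clone 10 replicate 1 and had 0.111 and 0.221 TPM in the others, against 3.16, 1.09 and 0.579 TPM in clone 12, and HLA-DRA was similarly low. These low levels come from genes with close paralogs and are uncertain, and neither gene was called without clone 12 replicate 1. CFI, a protease that inactivates complement, was lower, at 10.8, 3.39 and 3.03 TPM in clone 10 and 31.9, 18.8 and 10.9 TPM in clone 12 (-1.74, SE 0.34, adjusted p = 0.00339). SERPING1, the inhibitor of C1, was higher, at 18.9, 10.1 and 7.36 TPM in clone 10 and 4.27, 3.9 and 2.67 TPM in clone 12 (1.43, SE 0.25, adjusted p = 0.00161). With clone 10 replicate 1 left out, the values were 2.27 for ULBP3, -2.23 for CFI and 1.08 for SERPING1.

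Enzymes of detoxification and retinoid metabolism are given next. MGST1, a microsomal glutathione transferase, had 156, 247 and 178 TPM in clone 10 and 13.8, 26.5 and 37.6 TPM in clone 12, against 1.39 TPM in untreated cells (2.93, SE 0.33, adjusted p = 2.52e-05). It was the only called gene of 30 tested genes of NRF2 targets and oxidative stress (median 0.16). ALDH1A1, which makes retinoic acid from retinal, had 102, 182 and 99.6 TPM in clone 10 and 8.69, 21.2 and 42.5 TPM in clone 12 (2.56, SE 0.55, adjusted p = 0.00647). STRA6, the cell surface receptor for vitamin A uptake, had 7.23, 3.44 and 6.27 TPM in clone 10 and 0.426, 0.556 and 1.73 TPM in clone 12 (1.82, SE 0.40, adjusted p = 0.00764). Both of these retinoid genes had no overlap between the clones and both missed the call without clone 12 replicate 1 (adjusted p = 0.0571 and 0.0551). When clone 10 replicate 1 was left out, log2 fold changes were 3.07 for MGST1, 2.69 for ALDH1A1 and 1.64 for STRA6.

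SLC2A1, the glucose transporter GLUT1, had 64.4, 54 and 96.5 TPM in clone 10 and 20.3, 27.2 and 52.9 TPM in clone 12 (1.15, SE 0.28, adjusted p = 0.0168). With NDRG1, a gene induced by low oxygen (1.01, adjusted p = 0.0382), it was among 3 higher genes and 1 lower gene of 30 tested for glycolysis and hypoxia. Both lost the call without clone 12 replicate 1, clone 12 replicate 2 or clone 10 replicate 3 (adjusted p up to 0.128 and 0.227). NDRG1 also lost it without clone 10 replicate 2. CD36, a fatty acid receptor, had 16.7, 1.05 and 0.436 TPM in clone 10 and 37.4, 22.9 and 10.2 TPM in clone 12. The groups overlapped through clone 10 replicate 1, and the log2 fold change was -2.54 with it (SE 0.65, adjusted p = 0.0216) and -3.66 without it (adjusted p = 6.15e-05). SLC27A6, a fatty acid transport protein, was higher, at 3.38, 5.85 and 7.81 TPM in clone 10 and 0.141, 0.183 and 0.808 TPM in clone 12 (2.25, SE 0.24, adjusted p = 1.62e-05). Of 26 tested genes of lipid uptake and storage, 1 was higher and 1 was lower. The values without clone 10 replicate 1 were 1.20 for SLC2A1, 1.13 for NDRG1 and 2.53 for SLC27A6.

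Membrane transporters and channels included ABCB5, a melanoma-associated efflux pump, which had 6.43, 4.55 and 1.37 TPM in clone 10 and 34.6, 32.4 and 6.22 TPM in clone 12 (-2.15, SE 0.44, adjusted p = 0.00486). The ranges overlapped, with clone 12 replicate 3 just below clone 10 replicate 1. ABCC1, another efflux pump, was higher, at 24.3, 26.3 and 18.3 TPM in clone 10 and 6.86, 10.7 and 12.7 TPM in clone 12 (1.13, SE 0.22, adjusted p = 0.00379), but under the fold minimum without clone 12 replicate 1. PLN, phospholamban, an inhibitor of the calcium pump of the sarcoplasmic reticulum, had 15.2, 9.33 and 8.89 TPM in clone 10 and 90.6, 91.1 and 58.3 TPM in clone 12 (-2.75, SE 0.22, adjusted p = 4.32e-07). KCNK2, a potassium leak channel, had 3.2, 1.25 and 0.473 TPM in clone 10 and 20.5, 10.9 and 6.27 TPM in clone 12 (-2.36, SE 0.42, adjusted p = 0.00191). KIAA1324L was listed at 0 in clone 10 replicate 1 and had 0.102 and 0.172 TPM in the others, against 5.75, 5.9 and 6.87 TPM in clone 12, a difference with the smallest adjusted p among the named genes (-2.72, SE 0.13, adjusted p = 4.14e-10). RALYL, an RNA-binding protein, had 0.681, 0.0489 and 0.168 TPM in clone 10 and 20.8, 12.6 and 11.5 TPM in clone 12 (-3.61, SE 0.24, adjusted p = 3.58e-08). Leaving out clone 10 replicate 1 gave -2.50 for ABCB5, 1.09 for ABCC1, -2.97 for PLN, -2.76 for KCNK2, -2.65 for KIAA1324L and -3.81 for RALYL.

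Lysosomal genes were lower where they were called. PSAP, the precursor of the saposins that help degrade sphingolipids, had 969, 819 and 583 TPM in clone 10 and 2386, 1762 and 985 TPM in clone 12, and CTSH, the protease cathepsin H, had 251, 166 and 125 TPM in clone 10 and 602, 441 and 212 TPM in clone 12. They were 2 lower genes among 30 lysosomal genes tested, with 21 of the 30 negative (median -0.28, beside -0.03 over all genes tested). Their log2 fold changes were -1.05 (adjusted p = 0.012) and -1.14 (adjusted p = 0.0234). Both lost the call without clone 10 replicate 3, clone 12 replicate 1 or clone 12 replicate 2 (adjusted p up to 0.0994 and 0.162). In the fit without clone 10 replicate 1, log2 fold changes were -1.22 for PSAP and -1.41 for CTSH.

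Regulators of cell identity differed in a few members. MITF, the regulator of the melanocyte program, had 48.5, 55.8 and 37 TPM in clone 10 and 36, 40.1 and 31.8 TPM in clone 12, with overlap (0.37, SE 0.17, adjusted p = 0.193), against 123 TPM in untreated cells. Of 20 tested melanocyte genes, 0 were higher and 1 was lower with all libraries, and the median was -0.43. Without clone 10 replicate 1, 3 were lower and the median was -0.87. MLANA, a melanosome antigen, had 27.3, 1.27 and 1.47 TPM in clone 10 and 26.3, 14.5 and 0.752 TPM in clone 12, with overlap (-0.74, SE 0.84, adjusted p = 0.62). It was not called without clone 10 replicate 1 (-1.94) or without clone 12 replicate 3 (-1.93), but it was called lower without both (-3.12, adjusted p = 7.88e-05). The last of these fits was added after the values were seen. It drops the highest clone 10 library and the lowest clone 12 library for MLANA, so its adjusted p is no evidence of a fall. SLC24A5, an ion exchanger of pigment organelles, was the called gene, at 5.14, 6.07 and 3.02 TPM in clone 10 and 13.3, 11.5 and 7.2 TPM in clone 12 (-1.03, adjusted p = 0.00605). It lost its call without clone 10 replicate 3, clone 12 replicate 1 or clone 12 replicate 2 (adjusted p up to 0.0522). With clone 10 replicate 1 left out, the values were 0.33 for MITF and -1.09 for SLC24A5.

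PRRX1, a mesenchymal transcription factor, had 4.45, 2.12 and 1.3 TPM in clone 10 and 20.9, 13.1 and 6.92 TPM in clone 12, against 40.5 TPM in untreated cells (-1.99, SE 0.39, adjusted p = 0.00386). TWIST2, another factor of this kind, was lower by -1.30 at levels of 3.61 TPM or less in clone 12. They were the 2 lower genes of 19 tested mesenchymal transcription factors (median 0.02, and 0.20 without clone 10 replicate 1). FOXC2 and HIC1 were the 2 higher ones, by 1.00 and 1.09, and neither was called without clone 10 replicate 1 (0.98 and 0.74). TAGLN, an actin-binding protein of smooth muscle, had 20, 5.32 and 9.7 TPM in clone 10 and 40.5, 25.5 and 94.2 TPM in clone 12 (-2.07, SE 0.42, adjusted p = 0.0047), the only called gene of 19 tested contractile genes with all libraries. FAP, a fibroblast surface protease, was lower, at 41.1, 39.4 and 36.6 TPM in clone 10 and 115, 87.8 and 71.6 TPM in clone 12 (-1.18, SE 0.20, adjusted p = 0.00103). PDPN, podoplanin, was higher, at 16.1, 5.98 and 3.87 TPM in clone 10 and 1.74, 1.97 and 1.67 TPM in clone 12 (1.58, SE 0.28, adjusted p = 0.00188). KRT34, a hair keratin with close paralogs, had 16.3, 0.576 and 2.73 TPM in clone 10 and 21.5, 25.4 and 39 TPM in clone 12, and its log2 fold change was -2.62 with and -3.57 without clone 10 replicate 1. When clone 10 replicate 1 was left out, log2 fold changes were -2.33 for PRRX1, -1.06 for TWIST2, -2.52 for TAGLN, -1.22 for FAP and 1.06 for PDPN.

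Cancer-testis antigens, genes of the germ line that tumours can express, gave calls in both directions. Of 12 tested, 4 were higher and 1 was lower in both fits (median 0.27, and 0.71 without clone 10 replicate 1). SSX1 had 1.84, 6.32 and 10.2 TPM in clone 10 and 0.334, 0.977 and 0.762 TPM in clone 12 (1.88, SE 0.31, adjusted p = 0.000873). MAGEA3 had 6.18, 4.62 and 8.68 TPM in clone 10 and 1.04, 0.826 and 1.75 TPM in clone 12 (1.75, SE 0.25, adjusted p = 0.000246), and MAGEA1 was higher by 1.53. MAGEC1 was higher by 1.09 but was listed at 0 in clone 10 replicate 1 and lost its call in each of the other 5 fits that left out a library. CT45A5 was the lower gene, listed at 0 in clone 10 replicate 1, with 0.0586 and 0.152 TPM in the others and 1.26, 1.59 and 1.55 TPM in clone 12 (-1.20, SE 0.22, adjusted p = 0.00235). These families have near-identical copies, between which the estimation can divide reads, so the single members are uncertain. The values without clone 10 replicate 1 were 2.44 for SSX1, 1.76 for MAGEA3, 1.73 for MAGEA1, 1.67 for MAGEC1 and -1.16 for CT45A5.

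Ligands and receptors of axon guidance gave 1 higher and 3 lower genes of 27 tested (median -0.15). SEMA3F, a repellent semaphorin, had 18, 13.9 and 12 TPM in clone 10 and 2.95, 4.53 and 7.34 TPM in clone 12 (1.45, SE 0.22, adjusted p = 0.000498). NRP1, a receptor of semaphorins and of vascular endothelial growth factor, had 32.4, 20.2 and 19.3 TPM in clone 10 and 66.5, 53.3 and 47.1 TPM in clone 12 (-1.21, SE 0.18, adjusted p = 0.000263). SEMA3C and SLIT3, secreted guidance cues, were lower by -1.18 and -1.33 and lost the call without clone 12 replicate 1. SLIT3 also lost it without clone 10 replicate 3 or clone 12 replicate 2 (adjusted p up to 0.0889). Leaving out clone 10 replicate 1 gave 1.30 for SEMA3F, -1.43 for NRP1, -1.34 for SEMA3C and -1.63 for SLIT3.

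Genes of growth and of basic cell function held no call. None of 35 tested cell cycle genes was called in either fit. Of the 35, 29 had a positive log2 fold change (median 0.20, and 0.23 without clone 10 replicate 1). The libraries of the clones overlapped for all 35. MKI67, a marker of cycling cells, had 14.4, 16.9 and 28.1 TPM in clone 10 and 14.3, 24.3 and 33.2 TPM in clone 12, with overlap (-0.24, adjusted p = 0.599). None of 40 ribosomal protein genes was called, but all 40 had a negative log2 fold change, with a median of -0.42, and the libraries of the clones did not overlap for 31 of them (13.3% of all genes were lower without overlap). Of 30 nuclear genes of the respiratory chain, 28 were negative (median -0.31, beside -0.03 over all genes tested) and none was called. Ribosomal protein transcripts made up 10.6%, 9.44% and 12.4% of TPM in clone 10 and 14.6%, 13.0% and 14.5% in clone 12, against a mean of 21.3% in untreated cells. The exact permutation test of this share gave p = 0.1, the smallest value that 3 against 3 libraries allow (two-sided). Mitochondrially encoded transcripts made up 15.0%, 15.6% and 13.6% in clone 10 and 11.8%, 14.7% and 13.2% in clone 12, with overlap (exact permutation p = 0.2, two-sided). In the fit without clone 10 replicate 1, log2 fold change was -0.05 for MKI67.

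Set beside the parent, most of the genes higher in clone 10 were lower still in untreated cells. Of the 92 genes called higher in both fits, the untreated mean was below both clones for 76, between them for 13 and above both for 3. COL6A3, MGST1 and IGFBP5 are examples of genes above the parent in both clones and further above it in clone 10. MPPED2, a metallophosphoesterase, lay the other way: 7.84, 6.92 and 4.9 TPM in clone 10 and 0.683, 0.776 and 0.808 TPM in clone 12, with untreated cells at 5.5 TPM (2.09, SE 0.19, adjusted p = 1.73e-06). Of the 197 genes called lower, the untreated mean was below both clones for 100, between them for 58 and above both for 39. These positions were not counted over all genes tested, so they are not shown to be particular to the called genes. VGF and PRRX1 were above both clones in the parent, and TAC3, PLN and EPGN were below both. With clone 10 replicate 1 left out, the value was 1.96 for MPPED2.

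The clone 12 libraries were not equally far from clone 10. Clone 12 replicate 3 was the clone 12 library nearest the clone 10 mean for 78 of the 92 higher genes and 150 of the 197 lower genes. This was not counted over all genes tested, so it is not shown to be particular to the called genes. Without clone 12 replicate 3, 175 genes were higher and 361 were lower. Without both it and clone 10 replicate 1, a fit added after the values were seen, 179 were higher and 392 were lower. Libraries did not overlap between the clones for 128 of the 133 higher and 233 of the 260 lower genes called with all libraries, where 10.2% and 13.3% of all genes tested lay so. The call rule itself favours such genes, so these counts are no separate evidence for the calls. Of the called genes, 59 higher and 122 lower were called in all 6 fits that left out 1 library.

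Some calls rested on clone 10 replicate 1, and others on other libraries. Of the 393 called genes, 289 were called the same way without it. The other fits that left out 1 library kept 231 to 361. Of the 15657 genes tested, 10183 had a mean of at least 5 TPM over the 6 libraries. A fit of these alone kept 213 of the 393 calls. Without clone 10 replicate 1, 41 higher and 63 lower genes lost their call, 61 of these 104 with a mean under 5 TPM. In turn, 18 higher and 62 lower genes gained a call. EIF1AXP1, a pseudogene, had 29.4 TPM in that library and 2.66 and 2.09 TPM in the other clone 10 libraries, against 0, 0 and 0.717 TPM in clone 12, and its adjusted p was 0.0402 with and 0.195 without the library. CEMP1, a cementum protein gene, had 0.00273 TPM there and 1.74 and 2.72 TPM in the others, against 6.9, 7.31 and 8.52 TPM in clone 12 (-1.98 with it, -1.42 and adjusted p = 0.132 without it). RPL38P4, a ribosomal protein pseudogene, and AC144568.4, a gene the table does not describe, were lower in clone 10 by -1.75 and -2.24 with it and not called without it. CTD-3113P16.9 was listed at 0 in all 3 clone 10 libraries and at 2.1, 2.8 and 2.11 TPM in clone 12, and lost its call in every fit that left out a library. SLC12A7, a potassium chloride cotransporter, had 78.5, 86.9 and 21.9 TPM in clone 10 and 9.8, 22.7 and 17.7 TPM in clone 12, with overlap (1.69, adjusted p = 0.0192 with the library and 0.0881 without). Some of the largest named differences are also uncertain by their kind, since UQCRHP3 is a pseudogene (-3.08, and -2.81 without clone 10 replicate 1) and STON1-GTF2A1L a readthrough of neighbouring genes (-2.58, and -2.40 without it).

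Chromosomes 10 and 20 had the highest shares of genes lower in clone 10. The chromosome of each gene and its order came from RefSeq (GRCh38.p14) by symbol, for 13114 of the genes tested (83.8%), and these chromosomes were singled out after the values of all 23 were seen. On chromosome 10, 24 of 495 genes were lower (4.85%, beside 1.66% of all genes tested) and 3 were higher, 15 of the 24 also without clone 10 replicate 1. On chromosome 20, 17 of 381 genes were lower (4.46%) and 0 were higher, 13 also without that replicate. Over the 8268 of these genes whose mean log2 value was 3 or more, the median log2 fold change was -0.28 on chromosome 10, where 221 of 281 genes were negative. It was -0.18 on chromosome 20, where 188 of 257 were negative, and 0.13 on chromosome 1, where 591 of 850 were positive. The medians of the other 20 chromosomes ran from -0.06 to 0.11. Without clone 10 replicate 1 these medians were -0.28, -0.18 and 0.16, and with TPM as deposited, where all 8268 genes had a median of 0.1, they were -0.18, -0.08 and 0.23.

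The libraries of each clone were close together in these medians. Relative to the untreated mean, chromosome 10 had medians of -0.06, -0.07 and -0.03 in clone 10 and 0.24, 0.24 and 0.22 in clone 12. Chromosome 20 had -0.01, -0.04 and 0.01 in clone 10 and 0.13, 0.19 and 0.16 in clone 12, and chromosome 1 had 0.03, 0.08 and 0.05 in clone 10 and -0.13, -0.11 and -0.1 in clone 12. In these medians over a whole chromosome the clone 10 libraries lay closer to 0, the untreated mean, than the clone 12 libraries. Some chromosomes lay above 0 in both clones, such as chromosome 4 (0.36 to 0.41 in clone 10, 0.34 to 0.37 in clone 12). Others lay below it in both, such as chromosome 13 (-0.36 to -0.26 in clone 10, -0.29 to -0.23 in clone 12). Closeness to 0 therefore does not show which clone changed. On chromosome 10 the libraries of clones 7, 8, 9 and 13 lay between 0.12 and 0.19, and those of clone 11 at -0.19 and -0.13. On chromosome 20 the libraries of clones 7, 9, 11 and 13 lay between 0.08 and 0.19, and those of clone 8 between -0.09 and 0.07. On chromosome 1 those of clones 7 and 9 lay between -0.19 and -0.09, and those of clones 8, 11 and 13 between 0.01 and 0.12. The exact permutation test over the libraries gave p = 0.1, the smallest possible, for 8 of the 23 chromosomes, which is 0.288 after Benjamini-Hochberg adjustment (two-sided). In blocks of 25 neighbouring genes, chromosome 10 had medians of 0.15 (ZMYND11 to SUV39H2) and 0.05 (RPP38 to EPC1) in its first blocks and -0.12 to -0.48 in the 9 blocks from ITGB1 to its end. Within chromosome 10 clone 10 was not near the parent throughout: relative to the untreated mean, the sixth block had a median of -0.41 in clone 10 and 0.3 in clone 12, the eighth -0.42 and 0.1, and the eleventh -0.48 and 0.09. Of 324 blocks over all chromosomes, 14 had a median of at least 0.25 in size, and 7 of these were on chromosome 10. Of the genes described above, PSAP, NRP1, DKK1 and UQCRHP3 lie on chromosome 10 and PCSK2 on chromosome 20.

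**Figure D5:**
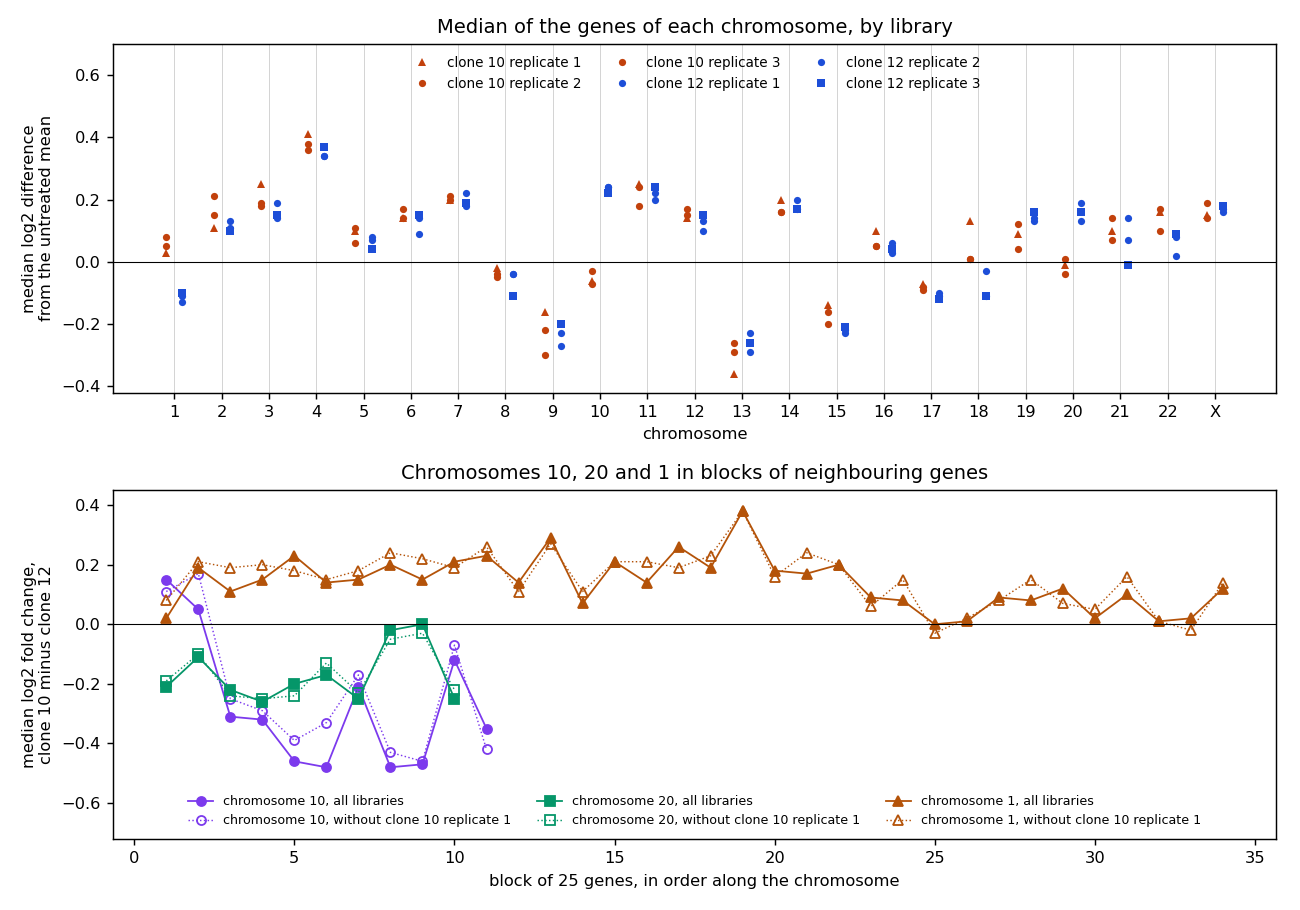
Top, median log2 difference from the untreated mean over the genes of each chromosome (x axis), 1 point per library of clone 10 (red) and clone 12 (blue). Bottom, median log2 fold change, clone 10 minus clone 12, in successive blocks of 25 genes along chromosomes 10, 20 and 1, with all libraries (filled) and without clone 10 replicate 1 (open): chromosome 10 is above 0 in its first 2 blocks and below it in the other 9.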

How the data were processed

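Libraries were paired-end and made from poly(A) RNA of samples randomised before extraction, per the labels' protocols. The authors deposited 1 gene table whose name speaks of counts, but its columns share 1 total, so its values were read as TPM. This also replaced the count test planned for raw counts. Tools and build named without a version in the submitters' processing notes are kallisto and hg19. Which transcript annotation was used is not given in the sources used here. Since TPM hold no depth, no counting interval is given, and errors are spreads between libraries.

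Deposited TPM were divided by library factors (0.743 to 1.14) from a trimmed mean of log ratios, with 30% of log ratios and 5% of levels trimmed on each side, over 10822 genes at 1 TPM or more in every library. Genes at 1 TPM or more in at least 2 libraries were fitted as log2(scaled TPM + 1) in 1 limma model (limma 3.58.1, R 4.3.3, lmFit and eBayes with trend) of 23 libraries in 8 groups, which share the estimate of spread. P-values were Benjamini-Hochberg adjusted over 15657 genes. Shares of TPM and chromosome medians were compared by exact permutation tests (scipy 1.17.1). The fit was tested on simulated data. The pair, the 47 gene lists and the named genes were chosen with earlier results of these data known.

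The naming rule took a panel (MITF, SOX10, MLANA, AXL, EGFR, NGFR, DUSP6, MKI67, COL1A1, COL1A2, VCAM1, IL6 and CXCL12), the 15 largest rises and falls called in both fits without overlap at a mean of 4 TPM or more in the higher clone, up to 5 members per list called in both fits, the 6 called genes with the highest level, and 6 genes that lost their call without clone 10 replicate 1. FGF7, DKK1, FOXC2 and HIC1 were named after their values were seen, and so were PMEL and the genes that bound the blocks. Some genes that the rule names are given only in counts or not reported here. Gene lists were described by counts and medians, with no test.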

Additional observations from a re-analysis of the deposited data

How the results depend on the processing

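With all libraries 133 genes were higher and 260 lower in clone 10. The higher count moved by more than 1.5 times to 38 with a pseudocount of 5, to 81 with a mean of at least 5 TPM and to 4 with only the 6 libraries fitted. The lower count moved to 468 with a pseudocount of 0.1, 100 with a pseudocount of 5, 133 with a mean of at least 5 TPM, 19 with only the 6 libraries, and 392 without clone 10 replicate 1 and clone 12 replicate 3, an alternative added after seeing the data. Leaving out 1 library in turn gave 81 to 287 higher and 163 to 426 lower genes. The stricter mean filter tested fewer genes (10183), and a fit of 6 libraries has fewer samples for its estimate of spread; the cause of the other shifts was not tested. TPM as deposited, median scaling, array weights and no filter stayed within 1.5 times. No named gene changed sign while called. The named genes include the panel, whose genes were not called with all libraries and so had no call to lose. Of 108 named genes, the number that lost their call was 3 with TPM as deposited, 0 with median scaling, 9 with array weights, 12 with no filter, 35 with a pseudocount of 5, 84 with only the 6 libraries and 36 without clone 12 replicate 1.

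The replicate numbers do not pair the clones by the labels, and the deviations of same-numbered libraries correlated at 0.099, 0.171 and 0.339. Each library correlated best with its own number, which is a hint from the data and not from the design. With the replicate block, 137 genes were higher and 268 lower, 390 of them called the same way as without it. Depth is unknown from TPM, so no counting error can be given for low genes.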
